A study of Mus musculus with 33 samples.

Results

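RNA sequencing of blood-derived phagocytes was compared with that of resting microglia in mice given an inhibitor of CSF1R. The 6 libraries of blood-derived phagocytes and the 6 libraries of resting microglia were taken by their titles, 12 of the 33 libraries in the study, and all genes were analysed. The blood-derived phagocytes were sorted from brain as cells with high CD45, high CD11b and CCR2 on their surface, and the resting microglia as cells with intermediate CD45 and CD11b. The titles mark the blood-derived phagocytes as Act and the microglia as Rest. State of activation and origin therefore differ together and cannot be told apart here. The labels give the mice of every group as Cortical MS and do not say how that disease state was produced. Besides these, 5 libraries of blood-derived phagocytes and 5 of resting microglia from vehicle-treated mice are used below. Genotype, strain, age, compound, dose and duration are not given in the labels, nor is it stated whether libraries came from separate animals. The p-values therefore measure the spread between libraries, which may be technical.

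Microglia are the resident macrophages of the brain, seeded in the embryo and kept alive by signals through CSF1R. Monocytes are made in bone marrow, carry CCR2, the receptor that draws them to inflamed tissue, and turn into macrophages there. In inflamed brain both act as phagocytes, and their origin is usually told from genes such as Sall1 and P2ry12 in microglia and Ly6c2 and Plac8 in cells from blood.

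Levels are counts per 1000000 counts of protein-coding genes in a library (CPM). Fold changes are log2 of blood-derived phagocytes over resting microglia. Their standard error was worked back from edgeR's F test, as the size of the fold change over the square root of F. Where a group has almost no counts, as for Col6a3, this error does not measure the precision of the fold change. Genes were called at a p under 0.05 from edgeR's quasi-likelihood F test after Benjamini-Hochberg correction for every tested gene, and "rose" and "fell" are used only of called genes. The 12 libraries held 14962157 to 20737445 counts. Replicates were close to each other, with correlations across genes of 0.951 to 0.97 within blood-derived phagocytes and 0.951 to 0.973 within resting microglia, against 0.736 to 0.798 between the groups. The first principal component held 75.7% of the variance and separated them. Blood-derived replicate 1 had the highest level of many microglial, T cell and NK cell genes, and resting replicates 2, 4 and 6 had high levels of border macrophage genes. Some results that rest on these libraries are given with and without them, but not every gene. Of 311 called named genes, 5 lost their call without blood-derived replicate 1, and 28 with resting replicates 2, 4 and 6 left out.

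The labels were checked on genes of each population. Ccr2, which encodes the receptor used in the sort, had 212 to 331 CPM (median 232) in blood-derived phagocytes, against 0.919 to 5.18 CPM (median 2.36) in resting microglia. Plac8, a monocyte gene, had 139.7 to 239.6 CPM (median 186) in blood-derived phagocytes, against 5.92 to 15.8 CPM (median 9.52) in resting microglia, and rose by 4.31 ± 0.22 (adjusted p = 9.7e-10). Sall1, a transcription factor that keeps microglial identity, had 0.175 to 20.1 CPM (median 2.86) in blood-derived phagocytes, against 353 to 493 CPM (median 437) in resting microglia (-6.32 ± 0.77, adjusted p = 1.8e-05). Tmem119, a surface protein of microglia, had 197 to 271 CPM (median 219) in blood-derived phagocytes, against 2219 to 3381 CPM (median 2814) in resting microglia (-3.55 ± 0.15, adjusted p = 2.8e-11). All 4 genes lay on the side their label gives, with no overlap between the groups. Of the other proteins in the sort, Ptprc for CD45 stood at 0.59 ± 0.10 and Itgam for CD11b at -1.19 ± 0.08 on the log2 scale. Ptprc RNA lay on the side of its gate. Itgam RNA lay against its gate, lower in the cells sorted as high in CD11b, and the cause was not tested. Genes of the sort were part of the gates and are not counted as findings. Csf1r, the target of the inhibitor, was present in both and had 3207 to 4222 CPM (median 3595) in blood-derived phagocytes, against 10460.1 to 13488 CPM (median 11598) in resting microglia (-1.60 ± 0.12, adjusted p = 9.3e-09).

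**Figure D1:**
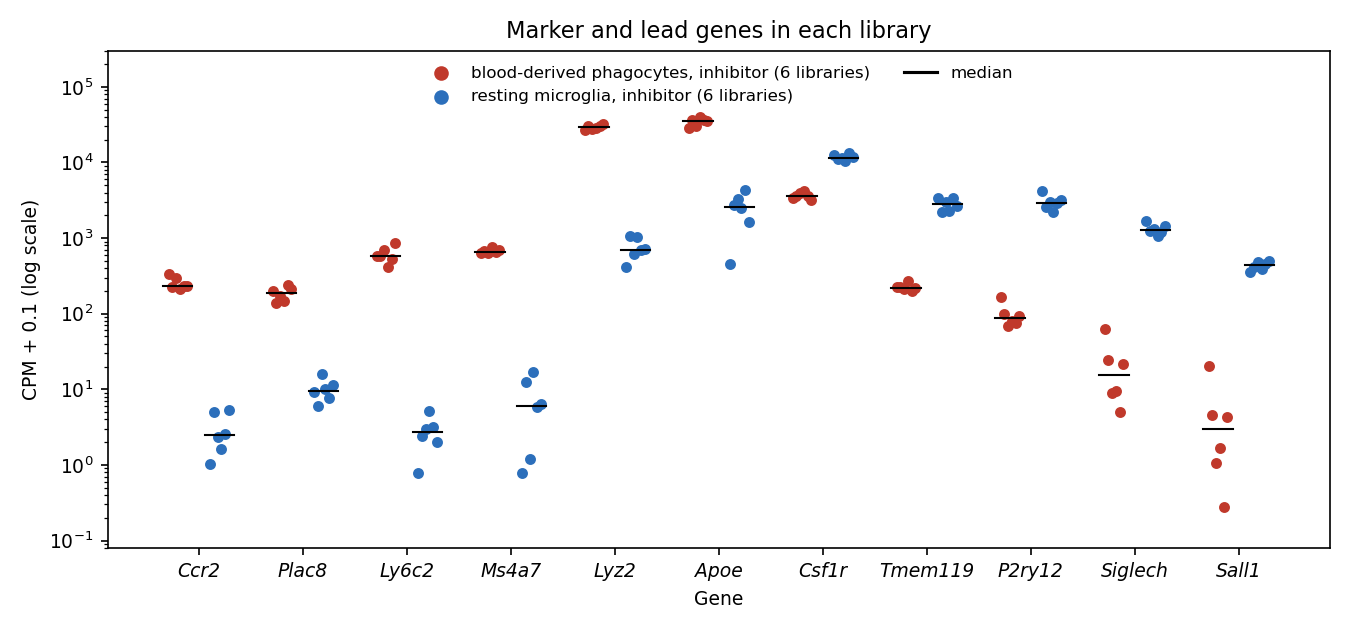
Each point is 1 library and each black line the median of a group; the y axis shows CPM with 0.1 added, on a log scale, for 11 genes, with 6 libraries of blood-derived phagocytes left of 6 libraries of resting microglia. The groups do not overlap for any of these genes, and Sall1 in blood-derived phagocytes spreads from 0.175 to 20.1 CPM.

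Most of the genes tested differed. Of 12022 genes, 7628 were called (63.5%), 3754 higher (31.2%) and 3874 lower (32.2%) in blood-derived phagocytes. With a change of at least 1 log2 unit the numbers were 1553 higher (12.9%) and 1859 lower (15.5%). At least 4 units separated 319 genes that rose and 306 that fell, and at least 8 units 18 and 13. The median log2 fold change of all genes was -0.05, and the libraries of both groups did not overlap for 4959 genes (41.2%). These shares are the background against which the counts of the gene lists below should be read. In bulk RNA, fewer cells that use a gene and less of its RNA per cell cannot be told apart. Without blood-derived replicate 1, 7692 genes were called, and with resting replicates 2, 4 and 6 left out, 6720.

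The genes with the smallest p among those that rose at least 2 units are described first; this choice favours genes with little spread within a group. S100a11, a calcium-binding protein, had 88.1 to 134 CPM (median 116) in blood-derived phagocytes, against 2.22 to 3.07 CPM (median 2.57) in resting microglia (5.56 ± 0.13, adjusted p = 1.3e-13). Dpep2, a membrane dipeptidase that cleaves leukotriene D4, had 159.8 to 234 CPM (median 177) in blood-derived phagocytes, against 0.946 to 2.01 CPM (median 1.32) in resting microglia (7.12 ± 0.18). Atp8b4, a phospholipid flippase of the P4 ATPase family, had 86.9 to 116 CPM (median 93.1) in blood-derived phagocytes, against 0.434 to 1.48 CPM (median 0.518) in resting microglia (7.24 ± 0.20). The groups do not overlap for these genes, which the choice by p favours. Tgfbi, an adhesion protein of the matrix, had 1644 to 2364 CPM (median 2087) in blood-derived phagocytes, against 62.6 to 79.3 CPM (median 73.2) in resting microglia (4.95 ± 0.14). Mgst1, a glutathione transferase, rose by 6.48 ± 0.19, Hp, the haemoglobin scavenger haptoglobin, by 7.32 ± 0.23, and Itgb7, an integrin chain for homing, by 5.24 ± 0.18. Ms4a6c rose by 3.57 ± 0.12, Cd44, the hyaluronan receptor, by 3.07 ± 0.10, Tnfsf13, the B cell factor APRIL, by 4.14 ± 0.14, Pira2, a paired immunoglobulin-like receptor, by 4.89 ± 0.17, and Ifitm6 by 6.50 ± 0.23.

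The largest rises among genes with at least 50 CPM in every blood-derived library were in Sirpb1b, Gpr141, Napsa, Cd209a and Sirpb1c. Sirpb1b, a receptor of the signal-regulatory protein family, had 54.6 to 91.4 CPM (median 70.2) in blood-derived phagocytes, against 0 to 0.401 CPM (median 0.0678) in resting microglia (9.40 ± 0.36, adjusted p = 3.5e-11). Gpr141, an orphan receptor, had 199 to 320.3 CPM (median 273) in blood-derived phagocytes, against 0 to 1.57 CPM (median 0.473) in resting microglia (9.05 ± 0.44). Napsa, an aspartic protease, had 202 to 350.2 CPM (median 255) in blood-derived phagocytes, against 0 to 1.54 CPM (median 0.528) in resting microglia (8.88 ± 0.43). The minimum in blood-derived phagocytes and the choice by fold set these genes apart, so their low level in resting microglia is a description. Sirpb1c rose by 8.42 ± 0.39 and Cd209a, a C-type lectin of dendritic cells derived from monocytes, by 8.79 ± 0.65. Sirpb1b, Sirpb1c, Pira2 and the Ms4a6 genes have close copies, and how reads were shared among them is not given, so their levels are uncertain.

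Some genes had 0 counts in every library of resting microglia, for which a fold is a lower bound set against 3 counts over the group. Gm5150 was at 19.4 ± 2.72 CPM in blood-derived phagocytes (mean ± SD, n = 6), at least 677-fold higher. Spink2 was at 8.22 ± 2.23 CPM, at least 290-fold higher, and Ccl17, a chemokine of dendritic cells, at 6.53 ± 5.4 CPM, at least 236-fold higher. Mcoln3, a lysosomal cation channel, and Ifnlr1, a chain of the interferon lambda receptor, were at least 134-fold and 132-fold higher. Reads were amplified without molecular identifiers, so these floors cover counting error only.

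Among genes that fell, Col6a3, a collagen VI chain, had 0 to 0.0543 CPM (median 0) in blood-derived phagocytes, against 41.9 to 73.6 CPM (median 60.3) in resting microglia (-11.77 ± 0.31, adjusted p = 3.6e-13). The only blood-derived library with any count was replicate 1. Pde3b, a phosphodiesterase of cyclic nucleotides, had 73.8 to 102 CPM (median 82.4) in blood-derived phagocytes, against 506 to 600.4 CPM (median 579.9) in resting microglia (-2.63 ± 0.08). Slco2b1, an organic anion transporter, had 43.1 to 97.4 CPM (median 52) in blood-derived phagocytes, against 1332 to 1847 CPM (median 1718) in resting microglia (-4.76 ± 0.17). Numb, an inhibitor of Notch signalling, had 34.7 to 45 CPM (median 43.5) in blood-derived phagocytes, against 190.2 to 253 CPM (median 217) in resting microglia (-2.29 ± 0.09). Here too the groups do not overlap, in genes chosen by p. Spns2, an exporter of sphingosine-1-phosphate, fell by 4.62 ± 0.16, Golm1, a Golgi membrane protein, by 3.50 ± 0.12, Tns1, an adaptor at focal adhesions, by 3.06 ± 0.11, and Olfml3, a secreted olfactomedin protein, by 2.78 ± 0.10. Bin1, which shapes membranes, fell by 2.80 ± 0.11, Mpi, a mannose phosphate isomerase, by 2.61 ± 0.11, and Srgap2, a regulator of Rac and of membrane protrusion, by 2.38 ± 0.10.

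The largest falls among genes with at least 50 CPM in every resting library were in Npnt, Lrrc3, Slc2a5, Mlph and Sall3. Npnt, a matrix ligand of an integrin, had 0 to 2.19 CPM (median 0.661) in blood-derived phagocytes, against 91.2 to 153 CPM (median 107) in resting microglia (-6.86 ± 0.53). Slc2a5, a fructose transporter, had 0 to 6.3 CPM (median 1.12) in blood-derived phagocytes, against 130.0 to 293 CPM (median 194) in resting microglia (-6.51 ± 0.66). Sall3, a zinc finger factor related to Sall1, had 0 to 6.89 CPM (median 0.802) in blood-derived phagocytes, against 144 to 208 CPM (median 177) in resting microglia (-6.44 ± 0.66). Lrrc3 fell by 6.83 ± 0.59 and Mlph, an adaptor of organelle transport, by 6.47 ± 0.49. These genes were chosen by fold, with a minimum set in resting microglia. In the other direction, Apob, the apolipoprotein of low density lipoprotein, had 0 counts in every blood-derived library and 4.08 ± 2.21 CPM in resting microglia (mean ± SD, n = 6), at least 150-fold lower in blood-derived phagocytes. Pcdhga8, Elavl4, Adcy8 and Adamtsl2 were likewise at 0 counts in all 6 blood-derived libraries, with 2.46 to 3.39 CPM on average in resting microglia.

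Promoters of 3 of the genes that rose and 3 that fell are shown because they carry matches to motifs of factors known in macrophages, AP-1, PU.1, MEF2 and the interferon-stimulated response element. They run from 250 bases before to 50 bases after the most upstream RefSeq start of the gene, in GRCm38.p6, 5′ to 3′ on the strand of the gene, with the matches in capitals. They lie at S100a11 chr3:93520246-93520545 (+), Atp8b4 chr2:126491504-126491803 (-), Sirpb1b chr3:15575016-15575315 (-), Slco2b1 chr7:99711291-99711590 (-), Numb chr12:83921885-83922184 (-) and P2ry12 chr3:59262936-59263235 (-).
S100a11: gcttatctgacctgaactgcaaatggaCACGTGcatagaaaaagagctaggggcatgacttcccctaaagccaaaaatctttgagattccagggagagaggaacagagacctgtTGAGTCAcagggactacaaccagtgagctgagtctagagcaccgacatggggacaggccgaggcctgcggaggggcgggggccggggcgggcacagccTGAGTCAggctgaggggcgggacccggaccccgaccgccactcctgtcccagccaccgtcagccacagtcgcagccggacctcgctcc
Atp8b4: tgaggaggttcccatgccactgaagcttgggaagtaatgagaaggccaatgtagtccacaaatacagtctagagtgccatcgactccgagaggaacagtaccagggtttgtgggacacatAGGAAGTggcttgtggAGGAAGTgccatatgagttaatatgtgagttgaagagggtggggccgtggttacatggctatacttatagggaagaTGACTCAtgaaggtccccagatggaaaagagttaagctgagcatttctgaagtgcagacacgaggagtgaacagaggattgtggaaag
Sirpb1b: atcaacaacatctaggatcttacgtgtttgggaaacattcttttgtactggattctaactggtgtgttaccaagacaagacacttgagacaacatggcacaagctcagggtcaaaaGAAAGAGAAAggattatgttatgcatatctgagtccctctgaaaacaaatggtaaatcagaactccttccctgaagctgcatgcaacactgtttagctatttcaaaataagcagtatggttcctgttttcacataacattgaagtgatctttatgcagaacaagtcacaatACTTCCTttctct
Slco2b1: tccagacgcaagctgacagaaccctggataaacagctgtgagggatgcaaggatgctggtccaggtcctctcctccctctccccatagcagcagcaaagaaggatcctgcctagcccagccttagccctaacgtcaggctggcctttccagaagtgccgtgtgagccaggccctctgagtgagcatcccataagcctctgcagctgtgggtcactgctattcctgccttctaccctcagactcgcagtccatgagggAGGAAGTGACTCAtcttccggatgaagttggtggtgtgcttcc
Numb: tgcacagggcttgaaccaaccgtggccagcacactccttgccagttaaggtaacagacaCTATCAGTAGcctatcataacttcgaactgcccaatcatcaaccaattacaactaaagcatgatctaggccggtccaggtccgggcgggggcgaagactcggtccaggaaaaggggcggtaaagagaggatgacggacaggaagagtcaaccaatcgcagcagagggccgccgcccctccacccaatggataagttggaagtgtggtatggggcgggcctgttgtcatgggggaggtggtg
P2ry12: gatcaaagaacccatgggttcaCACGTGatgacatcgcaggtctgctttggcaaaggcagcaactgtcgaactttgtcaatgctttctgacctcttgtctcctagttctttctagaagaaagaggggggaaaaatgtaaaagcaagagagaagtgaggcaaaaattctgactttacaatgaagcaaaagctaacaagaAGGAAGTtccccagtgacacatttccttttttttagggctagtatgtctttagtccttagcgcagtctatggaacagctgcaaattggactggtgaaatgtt
S100a11 held the AP-1 motif TGANTCA at 135 and 37 bases before the start, and the E-box CACGTG. Atp8b4 held AP-1 at 37 and the PU.1 motif AGGAAGT at 129 and 113 bases before the start, and Sirpb1b held the response element (GAAA, 2 free bases, GAAA) and PU.1 on the other strand. In Slco2b1, which fell, PU.1 and AP-1 matches share 1 base, so the same motifs stood in promoters of both directions. Numb held the MEF2 motif (CTA, 4 free bases, TAG) and P2ry12 held PU.1 and the E-box.

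Shares of promoters with a match were counted on both strands in the 540 of 720 genes higher by at least 2 log2 units, the 694 of 936 lower by as much, and the 9503 of 12022 tested genes that had a RefSeq entry. AP-1 was found in 10.56% of the higher, 4.179% of the lower and 4.672% of all tested genes, and in 7.919% of all 27025 promoters of the table. PU.1 was found in 17.78%, 9.366% and 9.618%, with 9.521% in the whole table. The RUNX motif TGTGGTT was found in 8.889%, 3.17% and 3.704%, with 5.365% in the whole table. The interferon-stimulated response element was found in 7.222%, 2.594% and 3.378%, with 3.493% in the whole table. For these 4 motifs the share was highest among genes that rose. MEF2 went the other way, at 1.667%, 4.467% and 2.799%, with 3.697% in the whole table. The E-box stood at 7.222% in the higher and 7.061% in the lower genes, under the 10.24% of all tested genes and close to the 7.238% of the whole table. Base composition differed too, with a median GC content of 56% in the higher, 60.5% in the lower and 60.67% in all tested promoters, and its part in the shares was not tested. A match is a string of letters and not a bound site.

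Microglial transcription factors fell as a group but not to the same depth. Of 14 tested, 12 fell and none rose, with a median of -1.34 against -0.05 for all genes, and 1 was called higher without resting replicate 1. Sall1 and Sall3 stood at a median of 0.662% and 0.455% of their mean in resting microglia. Mef2c had 97.4 to 191 CPM (median 128) in blood-derived phagocytes, against 404 to 537 CPM (median 473) in resting microglia (-1.74 ± 0.13), and Irf8, a factor for macrophage development, had 376 to 461 CPM (median 421) in blood-derived phagocytes, against 675 to 806 CPM (median 741) in resting microglia (-0.71 ± 0.10). Egr1 fell by 1.10 ± 0.22 and Mef2a by 0.42 ± 0.09. Spi1, which encodes PU.1, was not called and had 205 to 264 CPM (median 227) in blood-derived phagocytes, against 163 to 279.5 CPM (median 209) in resting microglia (0.19 ± 0.14, adjusted p = 0.23). The libraries of both groups overlapped for Spi1.

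Haematopoietic and monocyte transcription factors were mixed, with 11 of 18 higher and 4 lower (median 0.85). Runx3, named after its values were seen, had 68.1 to 83.7 CPM (median 81.1) in blood-derived phagocytes, against 0.167 to 2.01 CPM (median 0.691) in resting microglia (6.60 ± 0.35, adjusted p = 2.5e-09), and its relative Runx2 rose by 5.88 ± 0.41. Cebpb rose by 0.80 ± 0.18 and Hif1a, the factor of the hypoxia response, by 0.83 ± 0.13. Nr4a1 (0.87 ± 0.40), Id2 (-0.47 ± 0.25) and Klf2 (0.11 ± 0.52) were not called. Those that fell were Ikzf1 (-1.18 ± 0.08), a lymphoid and myeloid factor, Batf3 (-1.43 ± 0.20), a factor of conventional dendritic cells, Cebpd (-0.50 ± 0.19) and Cebpa (-0.33 ± 0.11). The Cebpd call was lost without any of several single libraries.

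All 25 homeostatic genes of microglia tested fell, with a median of -3.55. Cst3, a cysteine protease inhibitor, fell by 2.27 ± 0.16, Cx3cr1, the fractalkine receptor, by 2.69 ± 0.14, and P2ry12, a nucleotide receptor, by 4.88 ± 0.22. In relation to the mean of resting microglia the genes spread widely. By limits chosen after the values were seen, 11 genes had a median under 5%, 9 lay between 5% and 20%, and 5 lay at 20% or more. Slc2a5 stood at 0.574%, Adgrg1 at 0.848% and Siglech at 1.17%, while Tmem119 stood at 7.82%, Csf1r at 30.4%, Trem2 at 44.9% and Entpd1 at 51%.

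The lowest genes shared 1 feature across libraries. All 11 genes under 5% were highest in blood-derived replicate 1, against 5 of 9 in the middle and 1 of 5 at the top. In that library Sall1 stood at 4.66%, Siglech at 4.77%, P2ry12 at 5.49% and Rtn4rl1 at 6.32% of the resting mean. Without it Sall1 fell by 7.46 log2 units, against 6.32 with it, and Siglech by 6.47, against 5.87. The 25 genes all fell without it as well (median -3.60).

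**Figure D2:**
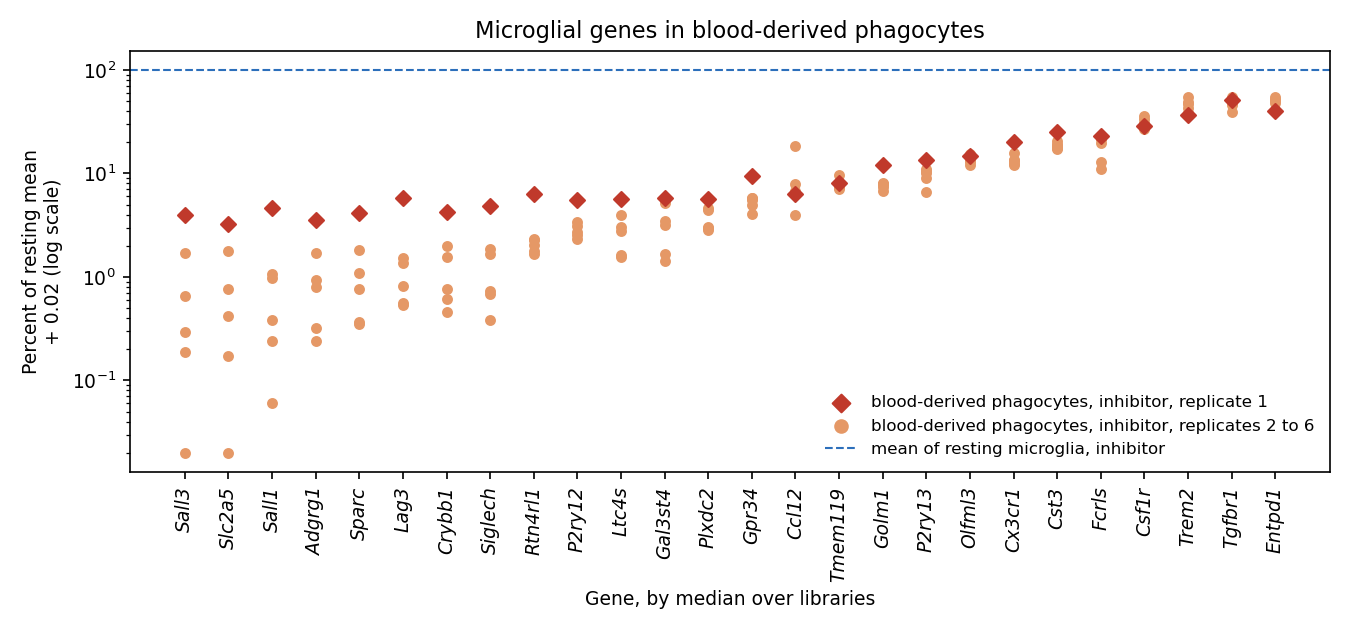
The y axis shows the level in each blood-derived library as a percent of the mean of resting microglia, with 0.02 added, on a log scale, for 24 of the 25 homeostatic genes and for Sall1 and Sall3, ordered by median. Diamonds mark replicate 1, which lies above the other 5 libraries for the genes at the low end. Among the 5 genes at 20% or more it is the highest library for Fcrls and the lowest for Trem2 and Entpd1.

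Receptors and ligands of the colony-stimulating factor family split by factor. Of 8 tested, 5 were higher and 3 lower. Csf1r and Csf3r, the receptor for granulocyte factor, fell by 1.60 ± 0.12 and 1.11 ± 0.10. Csf1, the ligand of CSF1R, had 9.44 to 18 CPM (median 11.1) in blood-derived phagocytes, against 96.5 to 261 CPM (median 151) in resting microglia (-3.59 ± 0.26, adjusted p = 7.2e-08). The GM-CSF receptor chains Csf2rb (0.92 ± 0.08), Csf2rb2 (0.77 ± 0.11) and Csf2ra (0.51 ± 0.09) rose, as did the growth factor receptors Flt3 (5.67 ± 0.39) and Kit (5.92 ± 0.58). Csf2rb and Csf2rb2 are near copies and their split is uncertain.

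Monocyte genes rose almost without exception, 17 of 18 (median 5.41), and Ly6e was the member not called (0.24 ± 0.12, adjusted p = 0.089). Ly6c2, the surface marker of inflammatory monocytes, named after its values were seen, had 414 to 862 CPM (median 574) in blood-derived phagocytes, against 0.689 to 5.09 CPM (median 2.62) in resting microglia (7.92 ± 0.39). Chil3, a chitinase-like secreted protein, had 523 to 1437 CPM (median 784) in blood-derived phagocytes, against 0.0482 to 3.9 CPM (median 3.14) in resting microglia (8.41 ± 0.57). Thbs1, the matrix protein thrombospondin, had 688 to 2343 CPM (median 1288) in blood-derived phagocytes, against 26 to 58.3 CPM (median 39.2) in resting microglia (5.24 ± 0.32). No resting library came near the lowest blood-derived one for these genes. Ifitm3 (2.96 ± 0.18), Ly6a (2.02 ± 0.20) and Ms4a6b (2.35 ± 0.09) rose as well. The list holds Ccr2, which was used in the sort.

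Genes of monocyte-derived macrophages rose in 20 of 22 cases (median 5.17). Lyz2, lysozyme, had 27009 to 32162 CPM (median 29178) in blood-derived phagocytes, against 409.7 to 1050.1 CPM (median 704) in resting microglia (5.38 ± 0.23). Gpnmb, a glycoprotein of lipid-laden macrophages, had 1009 to 3109 CPM (median 1524) in blood-derived phagocytes, against 2.7 to 33.5 CPM (median 18.6) in resting microglia (6.76 ± 0.65). Ms4a7 had 633 to 761 CPM (median 657) in blood-derived phagocytes, against 0.675 to 16.7 CPM (median 5.96) in resting microglia (6.66 ± 0.68). Lgals3, the lectin galectin-3, rose by 5.33 ± 0.45 and Vim, the filament protein vimentin, by 5.29 ± 0.21. Cd63, a tetraspanin of late endosomes, fell by 1.29 ± 0.25, and Mrc1 was not called (1.29 ± 0.66). Of 13 S100 proteins and annexins 11 rose (median 3.36), among them Anxa1 (5.97 ± 0.46), Anxa2 (5.28 ± 0.25), Anxa5 (3.36 ± 0.16) and Anxa4 (2.24 ± 0.12), and Anxa3 fell by 0.99 ± 0.08.

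**Figure D3:**
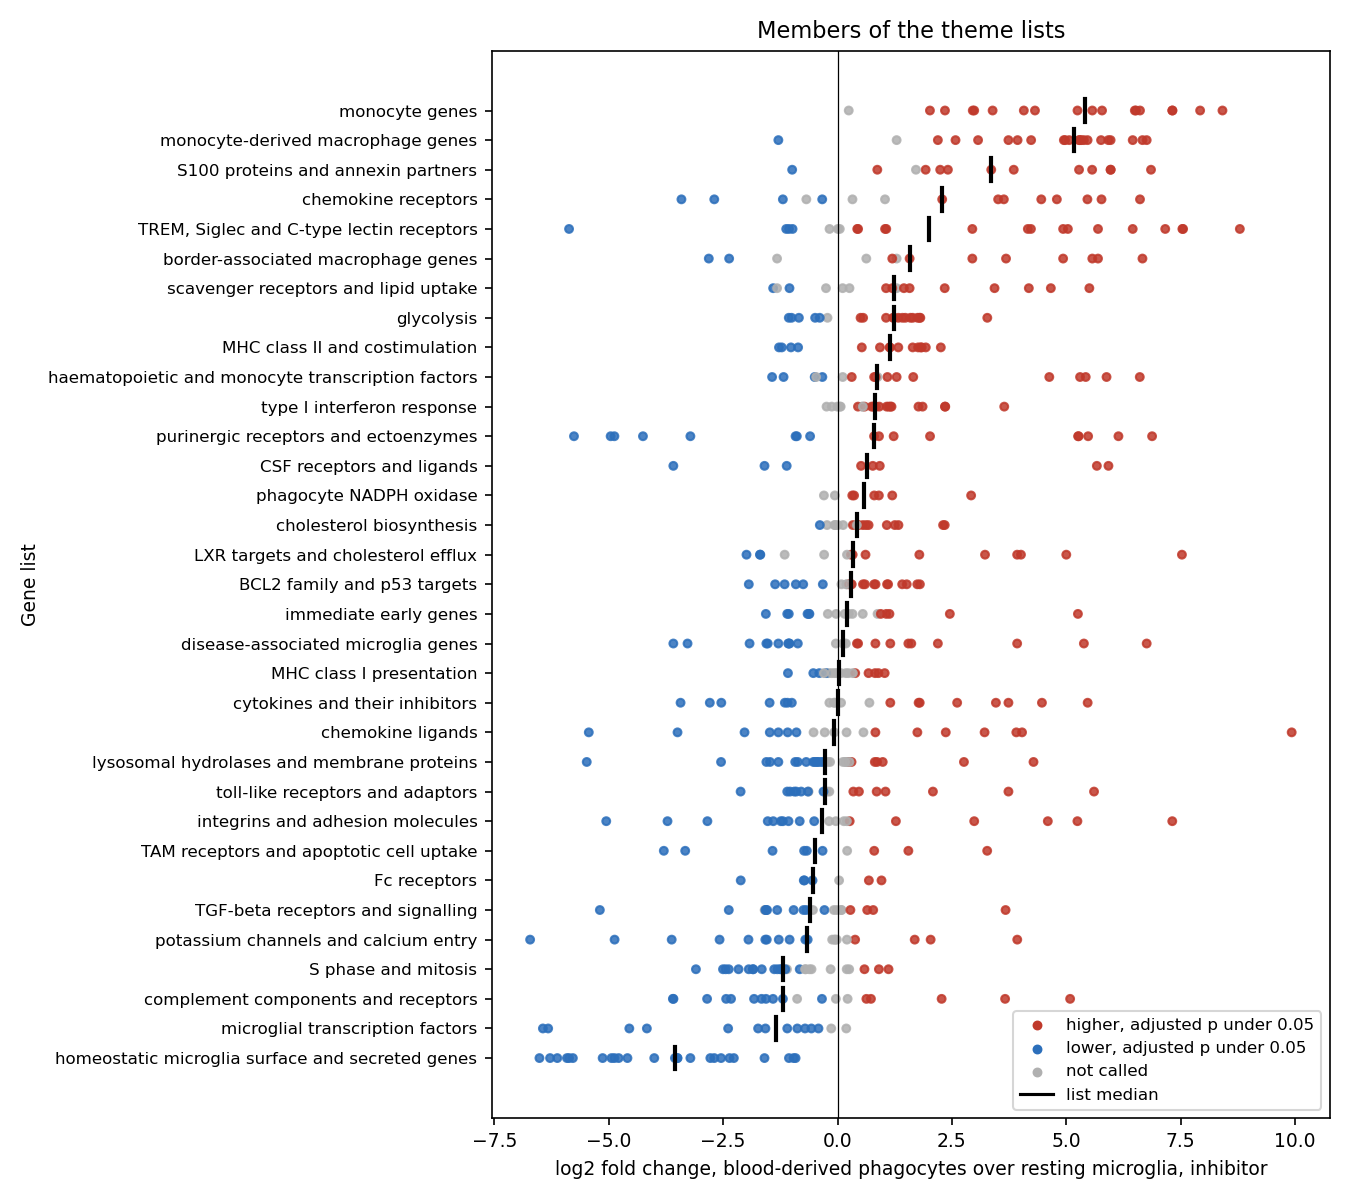
Each point is the log2 fold change of 1 member of a gene list in blood-derived phagocytes over resting microglia, and the black bar is the median of the list. Red points were higher and blue points lower at an adjusted p under 0.05, grey points were not called; monocyte genes lead at the top with a median of 5.41 and homeostatic genes lie lowest at -3.55.

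Adhesion molecules exchanged members. Of 20 tested, 6 rose and 10 fell, Itgam of the sort among them (median -0.35). Itga4, the chain that pairs with Itgb7 and Itgb1, had 151 to 251 CPM (median 191) in blood-derived phagocytes, against 2.17 to 14.9 CPM (median 8.04) in resting microglia (4.60 ± 0.39). Itgal (2.99 ± 0.26), Itga5 (1.28 ± 0.11) and Itgb1 (0.27 ± 0.08) also rose. Selplg, the ligand of selectins, fell by 2.84 ± 0.14, Cd9, a tetraspanin, by 1.53 ± 0.15 and Itgb5 by 1.24 ± 0.13, and Itgb2, the common chain of leukocyte integrins, was not called (0.14 ± 0.10).

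Of 15 chemokine receptors 8 rose and 4 fell (median 2.29, and 3.67 with resting replicates 2, 4 and 6 left out), Ccr2 of the sort among those that rose. Cxcr4, which holds cells in bone marrow, had 243 to 372 CPM (median 328) in blood-derived phagocytes, against 5.79 to 27.8 CPM (median 12.8) in resting microglia (4.45 ± 0.38), and Ccr1 rose by 2.29 ± 0.19. Cx3cr1, Ackr3 (-3.41 ± 0.69) and Cmklr1 (-0.33 ± 0.13) were among those that fell, and Ccrl2 was not called (0.33 ± 0.24). The Cmklr1 call was lost without any of several single libraries. Of 19 ligands 7 rose and 7 fell, but only 4 fell with resting replicates 2, 4 and 6 left out. Ccl4 fell by 1.48 ± 0.24 and Ccl3 by 1.29 ± 0.23, both inflammatory chemokines. Ccl2, the main ligand of CCR2, fell by 1.09 ± 0.27, a call lost with those 3 libraries left out (-0.81). Ccl12, another ligand of CCR2, fell by 3.50 ± 0.33 and Cxcl13, which attracts B cells, had 0 to 2.33 CPM (median 0.293) in blood-derived phagocytes, against 6.75 to 79 CPM (median 17.9) in resting microglia (-5.44 ± 0.94). Ccl8 fell by 2.03 ± 0.70, but stood at 0.42 and was not called with those libraries left out. Cxcl16, the ligand of CXCR6, rose by 1.74 ± 0.18.

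The cytokines of the interleukin-1 family went in opposite directions. Il1b had 3121 to 4819 CPM (median 4006) in blood-derived phagocytes, against 222 to 703 CPM (median 336) in resting microglia (3.46 ± 0.27, adjusted p = 8.8e-08). Il1a had 49.2 to 81 CPM (median 61.8) in blood-derived phagocytes, against 324 to 1279 CPM (median 719) in resting microglia (-3.43 ± 0.31, adjusted p = 8.8e-07). Neither pair of ranges overlapped. The receptor antagonist Il1rn rose by 3.73 ± 0.59. Tnf had 28 to 66.5 CPM (median 42.6) in blood-derived phagocytes, against 69 to 777 CPM (median 206) in resting microglia (-2.54 ± 0.56, adjusted p = 0.0018). Vegfa, a growth factor of vessels, had 222 to 446 CPM (median 382) in blood-derived phagocytes, against 3.07 to 15 CPM (median 7.88) in resting microglia (5.47 ± 0.45). Of 20 cytokines tested 8 rose and 7 fell, the others that fell being Pdgfb (-2.79 ± 0.19), Tnfsf13b (-1.48 ± 0.16), Il6 (-1.15 ± 0.28), Il16 (-1.09 ± 0.10) and Il18 (-1.0 ± 0.11), and Tgfb1 (0.08 ± 0.09) and Osm (0.70 ± 0.29) were not called.

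TGF-beta signalling sustains microglial identity. Its receptors Tgfbr2 and Tgfbr1 fell by 1.54 ± 0.13 and 0.96 ± 0.12, and of 20 members tested 10 fell and 4 rose (median -0.61). Those that rose were Tgfb3 (3.67 ± 0.65), Smad6 (0.78 ± 0.20), Ltbp3 (0.65 ± 0.25) and Nrros (0.28 ± 0.11). Only 2 rose without resting replicate 2, and 1 with resting replicates 2, 4 and 6 left out. Ski fell by 0.29 ± 0.10 and Skil was not called (-0.08 ± 0.16).

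Complement genes separated by pathway. C1qa, a chain of the recognition molecule of the classical pathway, had 582 to 883 CPM (median 740.2) in blood-derived phagocytes, against 3407 to 5004 CPM (median 3776) in resting microglia (-2.33 ± 0.13), and C1qc and C1qb fell by 1.82 ± 0.13 and 1.41 ± 0.11. Cfp, properdin, which stabilises the alternative pathway, had 174 to 300.3 CPM (median 231) in blood-derived phagocytes, against 3.54 to 14 CPM (median 6.71) in resting microglia (5.08 ± 0.31). Cfb, a protease of that pathway, rose by 3.66 ± 0.35, and C3, the central component, had 583 to 1047 CPM (median 774) in blood-derived phagocytes, against 44.5 to 484 CPM (median 130.3) in resting microglia (2.27 ± 0.49). The receptors C3ar1 (0.73 ± 0.10) and C5ar1 (0.63 ± 0.13) rose. Over the list 5 of 19 rose and 11 fell, Itgam of the sort among them (median -1.19).

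Receptors for uptake also differed by kind. Of 7 Fc receptor genes 2 rose and 4 fell, with the inhibitory Fcgr2b (0.96 ± 0.10) and the signalling chain Fcer1g (0.68 ± 0.12) higher, the activating Fcgr3 (-0.74 ± 0.13) and Fcgr1 (-0.72 ± 0.11) and the recycling receptor Fcgrt (-0.55 ± 0.10) lower, and Fcgr4 not called (0.03 ± 0.18). Of 16 scavenger receptor and lipid uptake genes 9 rose and 2 fell (median 1.24). Msr1, which binds modified lipoprotein, rose by 4.66 ± 0.34, Cd93 by 5.50 ± 0.32 and Stab1 by 1.20 ± 0.15, while Cd36 (-1.41 ± 0.22) and Lpl (-1.05 ± 0.23) fell. Cd68 (0.26 ± 0.15), Scarb2 (0.11 ± 0.10) and Lrp1 (-0.25 ± 0.11) were not called.

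The TAM receptors, which bind dying cells through bridging ligands, exchanged places. Axl had 841 to 1061 CPM (median 862) in blood-derived phagocytes, against 181 to 624.9 CPM (median 297) in resting microglia (1.55 ± 0.25). Mertk had 233 to 350.1 CPM (median 296) in blood-derived phagocytes, against 727 to 976 CPM (median 860.0) in resting microglia (-1.42 ± 0.11). The bridging ligand Pros1 had 29.3 to 72 CPM (median 37.3) in blood-derived phagocytes, against 468 to 659 CPM (median 623) in resting microglia (-3.80 ± 0.18). Timd4, a receptor for phosphatidylserine, rose by 3.27 ± 0.47 and Rac2 by 0.80 ± 0.10. Of the 10 members tested 3 rose and 6 fell, among them the engulfment adaptors Elmo1 (-0.73 ± 0.09) and Dock2 (-0.33 ± 0.14). The Dock2 call was lost without any of several single libraries (edgeR adjusted p of 0.071 to 0.14).

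Of 22 TREM, Siglec and C-type lectin genes 15 rose and 4 fell (median 2.01). Clec12a, an inhibitory lectin, had 339 to 423 CPM (median 363) in blood-derived phagocytes, against 0.47 to 12.5 CPM (median 2.4) in resting microglia (6.45 ± 0.63). Clec4a3 rose by 1.04 ± 0.11 and the adaptor Tyrobp by 0.45 ± 0.12. Those that fell were Siglech (-5.87 ± 0.59), Treml2 (-1.12 ± 0.18), Trem2 (-1.06 ± 0.14) and Cd33 (-0.98 ± 0.10). Among toll-like receptors and adaptors 7 of 18 rose and 8 fell. Tlr8, an endosomal receptor for RNA, had 71.1 to 91.2 CPM (median 77.9) in blood-derived phagocytes, against 0 to 6.36 CPM (median 0.648) in resting microglia (5.61 ± 0.73), and its relative Tlr7 fell by 1.10 ± 0.10. Cd14, the coreceptor for lipopolysaccharide, rose by 2.08 ± 0.17 and Tlr2 by 1.05 ± 0.19, while Tlr4 fell by 1.04 ± 0.10. Irak3, an inhibitor of this signalling, rose by 3.73 ± 0.16.

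Every one of 17 purinergic receptor and ectoenzyme genes was called, 9 higher and 8 lower. Adora3, an adenosine receptor, had 1.09 to 7.65 CPM (median 1.67) in blood-derived phagocytes, against 119 to 173 CPM (median 142) in resting microglia (-5.76 ± 0.41). P2rx1, an ATP-gated channel, had 0 to 1.14 CPM (median 0.651) in blood-derived phagocytes, against 14.2 to 25.2 CPM (median 20.9) in resting microglia (-4.96 ± 0.44). P2ry13 fell by 3.22 ± 0.17, Adora1 by 4.25 ± 0.56, and the ATP-hydrolysing Entpd1 by 0.92 ± 0.11, and P2rx4 rose by 0.91 ± 0.09. Potassium and calcium channels fell in 11 of 20 cases and rose in 4 (median -0.68). Kcnk6 had 46.8 to 84.1 CPM (median 58) in blood-derived phagocytes, against 313 to 435 CPM (median 394) in resting microglia (-2.58 ± 0.12). Kcnn4, a calcium-activated potassium channel, had 65 to 77.3 CPM (median 69.6) in blood-derived phagocytes, against 2.83 to 7.49 CPM (median 5.06) in resting microglia (3.93 ± 0.18). Kcna3, a voltage-gated channel, rose by 2.03 ± 0.15 and the intracellular calcium release channel Itpr1 by 1.69 ± 0.23, while its relative Itpr2 fell by 1.28 ± 0.08 and the store-operated channel Orai1 by 0.65 ± 0.11.

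Genes described for disease-associated microglia were divided, with 10 of 23 higher, 10 lower and a median of 0.12. Apoe, the lipid carrier, had 28959.6 to 40209.5 CPM (median 35807) in blood-derived phagocytes, against 451 to 4276 CPM (median 2600.3) in resting microglia (3.93 ± 0.41). Fth1, the ferritin heavy chain, rose by 1.61 ± 0.14. Cst7, a cystatin of activated microglia, fell by 3.28 ± 0.34, Ctsl by 1.55 ± 0.11, Cd9 by 1.53 ± 0.15 and Ctsd by 0.87 ± 0.17. Ctsb (0.12 ± 0.18) and B2m (0.18 ± 0.13) were not called.

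Border-associated macrophages line the meninges and vessels. Of 13 of their genes tested, 8 rose and 2 fell (median 1.58), with F13a1, a transglutaminase, at 5.57 ± 0.87, Clec10a at 4.93 ± 0.62, Siglec1 at 2.95 ± 0.25 and Clec4n at 5.69 ± 0.63. Folr2 and Cd209f fell by 2.37 ± 0.68 and 2.81 ± 0.84, both under 1 CPM in blood-derived phagocytes. The resting libraries divided within their own group. Cd163 stood at 19.2, 10.9 and 14 CPM in replicates 2, 4 and 6 of resting microglia and at 0.241, 0.053 and 0.47 CPM in replicates 1, 3 and 5. Mrc1 stood at 55.1, 35.9 and 29.3 CPM in the same replicates 2, 4 and 6 and at 1.01, 5.4 and 7.11 CPM in 1, 3 and 5. Resting microglia with vehicle divided as well. There Cd163 stood at 16.7 and 10.2 CPM in replicates 1 and 2, and at 0.659, 1.02 and 0.534 CPM in replicates 3, 4 and 5. Mrc1 stood at 59.5 and 68.5 CPM in vehicle replicates 1 and 2, and at 10.9, 5.68 and 2.08 CPM in 3, 4 and 5. With resting replicates 2, 4 and 6 of the inhibitor group left out 11 members rose, none fell, and the median was 3.51. Those libraries were picked for their high level of such genes, so this change follows from the choice and is not a test.

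**Figure D4:**
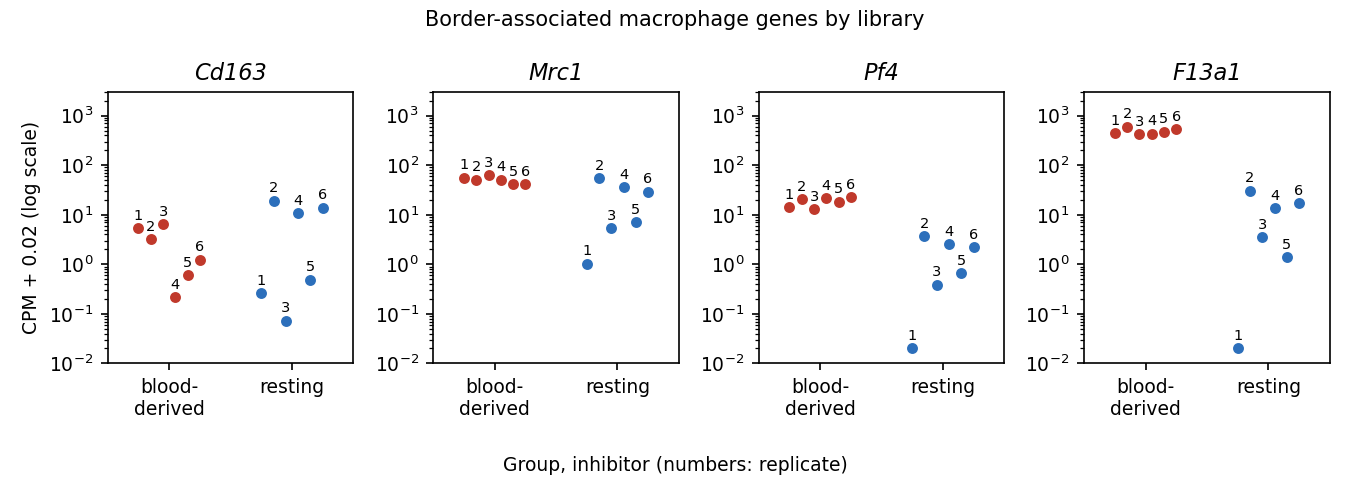
CPM of 4 border-associated macrophage genes, with 0.02 added, on a log scale in 6 libraries of blood-derived phagocytes (left in each panel) and 6 of resting microglia (right), with replicate numbers. Resting replicates 2, 4 and 6 lie above replicates 1, 3 and 5 for all 4 genes, and F13a1 in every blood-derived library lies above every resting one.

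Interferon-response genes rose in 16 of 23 cases and none fell (median 0.81). Irf7, the factor that amplifies the response, had 248 to 405 CPM (median 322) in blood-derived phagocytes, against 43.1 to 90.2 CPM (median 68.7) in resting microglia (2.35 ± 0.19). Oasl2 (1.86 ± 0.15) and Ifi204 (0.91 ± 0.11) rose, while Irf9 (0.05 ± 0.09) and Stat2 (0.07 ± 0.10) were not called. Of 15 MHC class II and costimulatory genes 11 rose and 4 fell (median 1.14). H2-Aa had 3346 to 6551 CPM (median 5013) in blood-derived phagocytes, against 896 to 2268 CPM (median 1431) in resting microglia (1.81 ± 0.24). H2-Ab1 (1.76 ± 0.25), H2-Eb1 (1.84 ± 0.23), Cd74, the invariant chain (1.33 ± 0.21), and H2-DMa (0.53 ± 0.10) moved with it. The costimulatory ligand Cd86 had 151 to 237 CPM (median 186) in blood-derived phagocytes, against 404 to 567 CPM (median 483) in resting microglia (-1.28 ± 0.11), and Icosl, another costimulatory ligand, also fell (-1.22 ± 0.12). H2-Oa (-1.02 ± 0.23) and H2-Ob (-0.86 ± 0.25), which restrain peptide loading, fell too. MHC class I genes changed less, with 5 of 18 higher, 4 lower and a median of 0.03, and H2-D1 (-0.02 ± 0.15) and H2-K1 (-0.06 ± 0.10) were not called. Members of the H2-Q and H2-T groups are near copies, and their single values are uncertain.

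Lysosomal genes fell in 14 of 28 cases and rose in 7 (median -0.27). Ctsd fell as given above, Grn, progranulin, by 0.50 ± 0.17 and Ctss by 0.32 ± 0.12. Psap, the precursor of saposins, rose by 0.81 ± 0.15, and Npc2 and Lipa, which handle cholesterol in the lysosome, by 0.99 ± 0.13 and 0.86 ± 0.11. Genes of lipid efflux and LXR targets rose in 9 of 15 cases and fell in 3. Apoc2, an activator of lipoprotein lipase, had 296 to 487 CPM (median 411) in blood-derived phagocytes, against 0.579 to 4.69 CPM (median 2.12) in resting microglia (7.53 ± 0.36). Pltp, a phospholipid transfer protein, had 442 to 709.6 CPM (median 484) in blood-derived phagocytes, against 27.2 to 41.7 CPM (median 34.9) in resting microglia (4.01 ± 0.15). Lpcat3 (-1.99 ± 0.16), Abca9 (-1.70 ± 0.14) and Mylip (-1.69 ± 0.14) fell. Cholesterol synthesis genes rose in 12 of 19 cases, with Srebf2 (1.25 ± 0.11) among them and Dhcr7 lower (-0.39 ± 0.12), but only 6 rose with resting replicates 2, 4 and 6 left out.

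Glycolytic genes rose in 14 of 20 cases and fell in 5 (median 1.22). Aldoa, an aldolase, had 1051 to 1389 CPM (median 1244) in blood-derived phagocytes, against 305 to 479.5 CPM (median 359) in resting microglia (1.75 ± 0.13). Tpi1 (1.81 ± 0.17), Eno1 (1.48 ± 0.12), Ldha (1.42 ± 0.11), Pkm (1.33 ± 0.13) and Gapdh (1.23 ± 0.13) rose, while the regulators Pfkfb3 (-1.06 ± 0.15) and Pfkfb4 (-0.39 ± 0.12), the hexokinases Hk2 (-1.0 ± 0.08) and Hk3 (-0.49 ± 0.16) and the transporter Slc2a3 (-0.84 ± 0.27) fell. Of 8 NADPH oxidase genes 6 rose and none fell. Cybb, the catalytic subunit, had 1805 to 2223 CPM (median 1999.5) in blood-derived phagocytes, against 161 to 458 CPM (median 261) in resting microglia (2.92 ± 0.20), its partner Cyba rose by 0.90 ± 0.13, and the organiser Ncf1 was not called (-0.06 ± 0.09).

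Genes of S phase and mitosis fell in 15 of 26 cases and rose in 3 (median -1.18). Mki67, a proliferation marker, fell by 0.83 ± 0.32 and Stmn1 by 1.14 ± 0.27. The Mki67 call was lost without resting replicate 4 (-0.42, edgeR adjusted p = 0.094) and without any of several other single libraries. The summed list had 329 to 436 CPM (median 378) in blood-derived phagocytes, against 344 to 929 CPM (median 474) in resting microglia. The 3 that rose, Mcm6 (1.11 ± 0.33), Mcm4 (0.90 ± 0.12) and Mcm2 (0.59 ± 0.21), belong to the replicative helicase. In the BCL2 family and p53 targets 12 of 22 rose and 6 fell. Cdkn1a, the cell cycle inhibitor p21, had 146 to 285 CPM (median 271) in blood-derived phagocytes, against 32 to 121 CPM (median 78.6) in resting microglia (1.80 ± 0.28). Pmaip1 (1.74 ± 0.35) and Bcl2l11 (1.41 ± 0.15), which promote cell death, and Mcl1 (0.56 ± 0.17), which opposes it, rose, while Sesn1 (-1.36 ± 0.12) and Bmf (-1.16 ± 0.09) fell. Among immediate early genes 5 of 18 rose and 6 fell, 3 with resting replicates 2, 4 and 6 left out. Nr4a2 had 73.8 to 251 CPM (median 162) in blood-derived phagocytes, against 0.868 to 11.4 CPM (median 4.01) in resting microglia (5.25 ± 0.61) and Fosl2 rose by 2.45 ± 0.37, Jun fell by 1.07 ± 0.16, and Fos (0.25 ± 0.18) was not called.

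Markers of other cells moved with the groups. NK markers rose in 7 of 7 cases, with a sum of 54.4 to 273 CPM in blood-derived phagocytes against 2.31 to 5.65 CPM in resting microglia, where 2 of the 9 markers were at 0 counts. T cell markers rose in 9 of 10 cases, with a sum of 94 to 285 CPM against 67.5 to 114 CPM. Il7r, which was not called (-0.16 ± 0.13), alone averaged 69.7 and 83.2 CPM in these groups. The median of the T cell markers was 4.01, and 2.83 without blood-derived replicate 1, which had the highest sum of both lists. Some of these markers, such as Prf1 (0.123 CPM) and Cd3g (0.265 CPM), were near 0 on average in resting microglia. They could pass the filter on low counts only through blood-derived libraries. A marker low in both groups was not tested, so the counts of NK and T cell markers that rose follow partly from the filter. Dendritic cell markers rose in 9 of 10 cases, with a sum of 201 to 814 CPM against 35.5 to 40.3 CPM, and Flt3 had 31 to 129 CPM (median 65.9) in blood-derived phagocytes, against 0.675 to 2.5 CPM (median 1.24) in resting microglia (5.67 ± 0.39). Of 10 neutrophil markers 5 rose, 3 without blood-derived replicate 6, and 1 fell. Their median was 1.78, and 3.99 with resting replicates 2, 4 and 6 left out. Their sum was 445 to 660.2 CPM in blood-derived phagocytes against 822 to 1040.4 CPM in resting microglia, and Csf3r alone averaged 393 and 911 CPM in these groups. Granule genes Ltf (1.32 ± 1.05) and Ngp (1.07 ± 1.00) were not called and Mmp8 rose by 6.59 ± 0.63. The part of these cells in the rises of monocyte, dendritic cell and MHC class II genes was not tested.

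Markers of brain and vessel cells were few and are given beside the 31.2% of all genes called higher and 32.2% called lower. Oligodendrocyte markers fell in 6 of 8 cases, with a sum of 148 to 211 CPM against 264 to 424 CPM. Of 9 astrocyte markers 2 fell, 1 without blood-derived replicate 6 or resting replicate 5, and 1, Aldoc, rose (2.06 ± 0.26), 2 without blood-derived replicate 3 or resting replicate 5. Slc1a3, a glutamate transporter, had 0.524 to 20.1 CPM (median 2.41) in blood-derived phagocytes, against 213 to 292 CPM (median 265) in resting microglia (-5.50 ± 0.65). Erythroid genes fell in 4 of 4 cases, with sums of 0 to 19.6 CPM against 9.13 to 252 CPM. Of 9 endothelial genes 3 fell, 5 without blood-derived replicate 4, and 1 rose, 2 without blood-derived replicate 2 or resting replicate 2. Of 5 mural cell and fibroblast genes 2 fell, but 1 with any single one of blood-derived replicates 1, 2, 3 and 6 or resting replicates 2, 4 and 5 left out. Of 2 neuronal genes Map2 rose (2.20 ± 0.33). The B cell marker Cd79b fell by 1.02 ± 0.17. The part of RNA from these cells in the results was not tested.

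The same 2 populations from vehicle-treated mice were set beside these results, in libraries not shared with them. There 7542 of 12059 genes were called (62.5%), 3727 higher (30.9%) and 3815 lower (31.6%). Of 11812 genes tested in both, 6385 were called in both in the same direction, 83.7% of the calls with inhibitor and 84.7% of those with vehicle, and 0 in opposite directions. Across genes, which are not independent replicates, the log2 fold changes had a Pearson r of 0.95, and their median absolute difference was 0.175. Tmem119 fell by 3.55 ± 0.15 with inhibitor and by 3.45 ± 0.20 with vehicle, and Pros1 by 3.80 ± 0.18 and 3.81 ± 0.16. Kcnn4 rose by 3.93 ± 0.18 with inhibitor and 3.91 ± 0.19 with vehicle.

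**Figure D5:**
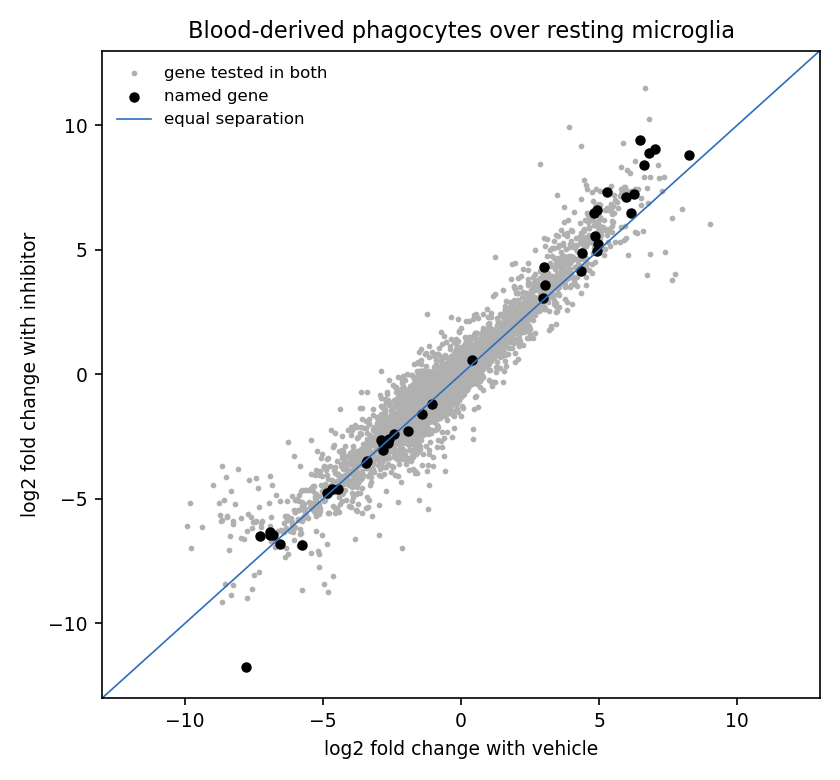
The log2 fold change of blood-derived phagocytes over resting microglia with inhibitor (y axis) against that with vehicle (x axis), 1 point a gene, for 11812 genes; black points are named genes and the line marks equal values. The points follow the line, with a Pearson r of 0.95.

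The difference between these separations was tested as an interaction over the 22 libraries. Of 12921 genes 0 were called in edgeR (smallest adjusted p = 0.192), and 891 had an unadjusted p under 0.05 (6.9%), while DESeq2 called 14 and no other method any. The median standard error of the difference was 0.23 log2 units. The genes with the smallest p were D130040H23Rik, Kcna3 and Map2 on the higher side and Cux2, Igfbp3 and Mmaa on the lower. Kcna3 rose by 2.03 ± 0.15 with inhibitor and 1.03 ± 0.15 with vehicle, and Mmaa, a mitochondrial protein of cobalamin metabolism, stood at -1.46 ± 0.18 and -0.25 ± 0.19. Among 18 monocyte genes the median difference was 0.92, 9 had an unadjusted p under 0.05 and none was called. Plac8 stood at 4.31 ± 0.22 with inhibitor and 3.0 ± 0.23 with vehicle (edgeR adjusted p = 0.39 for the difference). Ccr2 in resting microglia lay between 0.919 and 5.18 CPM with inhibitor and between 1.37 and 19.7 CPM with vehicle, and the part of such RNA in the resting gate in these differences was not tested.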

How the data were processed

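RNA was measured in sorted mouse brain cells, amplified with SMART-Seq v4 from small inputs and made into Nextera XT libraries for a NextSeq, per the labels' protocols. Inputs and PCR cycles of single libraries are not given and could not enter a fit. The submitters' processing notes name GRCm38 and bcl2fastq. The aligner, counter and strandedness are not given in the sources used here, so genes and antisense partners cannot be told apart. The authors' deposited count table gives expected counts of 21950 protein-coding genes (16.3% of values not whole). Their second deposited table gives log2 FPKM, with 1 added before the logarithm, of 27745 genes. Columns were matched to samples by library name. Symbols came from GENCODE M21, with 64 genes unnamed, and promoters from RefSeq (GRCm38.p6).

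Expected counts were rounded, filtered with filterByExpr, scaled by TMM and tested with the robust quasi-likelihood test of edgeR 4.0.16 in R 4.3.3, with Benjamini-Hochberg adjustment and a threshold of 0.05. CPM are of plain library totals. Each comparison used its own groups, and the interaction all 4 groups. Alternatives were DESeq2 1.42.0, RLE size factors, no filter, all 33 libraries in 1 fit, limma-voom and limma-trend (limma 3.58.1), detected genes as a covariate, a replicate block, and leaving out each library. Sex as a covariate and leaving out resting replicates 2, 4 and 6 were added after the data were seen. The code was tested on simulated data.

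Members and the 44 lists (652 genes, 599 tested, 49 below the filter and 4 outside the count table) were chosen with earlier results of these data known. Named genes were, in each direction, up to 12 called genes of lowest p with at least 2 log2 units and 20 CPM in the higher group, up to 5 with the largest change among those with 50 CPM in every library of the higher group, up to 5 with 0 counts in a group, 3 per direction of the interaction, and up to 6 members per list with the highest mean, plus called members opposite to most. Adgrg1, Kit, Ly6c2, Rtn4rl1, Runx2 and Runx3 fall outside this rule and were named after their values were seen. Some named genes are not reported here.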

Additional observations from a re-analysis of the deposited data

Results flagged for a closer look

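Of 108 groups of 6 libraries examined, 12 held a library far from the other 5, and 7 of the 12 were blood-derived replicate 1. The limit used flags about 1 in 20 groups of independent, normally distributed values. These groups share libraries and some hold levels near 0, so that rate need not apply here. In blood-derived replicate 1 Sall1 stood at 20.1 CPM (next 4.5), Golm1 at 113 CPM (next 76) and Slco2b1 at 97.4 CPM (next 59.6). Bin1 stood there at 73.8 CPM (next 54.6) and Col6a3 at 0.0543 CPM. For Col6a3 the others were at 0, so any count would have been flagged. The summed T cell markers in blood-derived replicate 1 stood at 285 CPM (next 138) and the summed NK cell markers at 273 CPM (next 82.3). The cause was not tested. Elsewhere Dpep2 stood at 234 CPM in blood-derived replicate 2 (next 178). Atp8b4 stood at 1.48 CPM in resting replicate 3 (next 0.602), Cd44 at 31.8 CPM in resting replicate 4 (next 24.4) and Sirpb1b at 0.401 CPM in resting replicate 6 (next 0.146). Slco2b1 was lowest in resting replicate 4, at 1332 CPM (next 1679).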

How the results depend on the processing

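Among 362 named genes Ccl8 alone reversed, at 0.42 with resting replicates 2, 4 and 6 left out against -2.03. A change of sign in a gene called in neither fit was not counted. List medians and counts were checked for their size and not for a change of sign. The inhibitor comparison called 3967 genes (2288 higher, 1679 lower) with all 33 libraries in 1 fit, against 7628, and the vehicle comparison 3493 (2016 higher, 1477 lower), against 7542. With detected genes as a covariate the inhibitor comparison called 5417 genes, 52.0% of them higher, and the vehicle comparison 4117 (2064 higher, 2053 lower). The cause was not tested. For the interaction DESeq2 called 14 genes (8 higher, 6 lower), among them Plac8, and edgeR called 1 without blood-derived vehicle replicate 4 or 5 and 0 otherwise. Leaving out single libraries gave 7316 to 7692 calls with inhibitor (3671 to 3860 higher, 3645 to 4005 lower) and 7085 to 7653 with vehicle (3474 to 3837 higher, 3527 to 3816 lower). It gave 0 to 1 for the interaction (0 to 1 higher, 0 lower).

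Of 311 called named genes, 291 kept their call whichever library was left out. Calls were lost for 68 with all 33 libraries, 46 with detected genes as a covariate and 28 with resting replicates 2, 4 and 6 left out. The median of all genes was -0.15 with DESeq2 and -0.13 with no filter, both over 16646 genes, but over the 12022 genes of the reported fit it was -0.06 and -0.04, against -0.05. The replicate numbers did not pair the samples (correlation of same-numbered deviations -0.083 to 0.044, and no library correlated best with its own number). With the replicate block 7239 genes were called with inhibitor, 7101 with vehicle and 0 in the interaction. Depth limits genes under about 0.0267 CPM in blood-derived phagocytes and 0.0285 CPM in resting microglia, the level of 3 counts over a group.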

Other observations

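Genes found only in the authors' log2 FPKM table, most of them noncoding, included some that differed between the populations. Of 5645 tested with limma-trend on log2(FPKM + 1), blood-derived phagocytes had more of 536 and less of 883. Over all 20735 genes of that fit they had more of 4439 and less of 4914, so a smaller share was called among these 5645. Of 893 long intergenic noncoding RNAs 93 were higher and 156 lower, and of 1017 antisense RNAs 82 were higher and 181 lower, where reads of the partner gene cannot be told apart without strand. Gm36161, an intergenic RNA, averaged 7.21 ± 0.17 log2 FPKM in blood-derived phagocytes and 0.87 ± 0.62 in resting microglia (SD, n = 6 each; limma adjusted p = 1.8e-12). Gm10790 averaged 0.51 ± 0.26 log2 FPKM in blood-derived phagocytes and 4.87 ± 0.24 in resting microglia (limma adjusted p = 5.5e-13).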
